A study of Mus musculus with 12 samples.

Results

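The genes described here are 42 members of the NRF2 pathway and of the antioxidant systems that it controls in part, measured by bulk RNA-seq in hematopoietic stem and progenitor cells (HSPCs). They were chosen by gene symbol, and all 42 were found among the 20792 genes of the deposited tables. By role they fall into 7 genes of NRF2 control, 4 of glutathione synthesis and reduction, 8 glutathione peroxidases and transferases, 4 glutaredoxins, 5 genes of the thioredoxin system, 7 peroxiredoxins and sulfiredoxin, 3 superoxide dismutases and catalase, and 4 other NRF2 targets. HSPCs were sorted from mouse bone marrow by the surface phenotype Lin−CD127−c-kit+Sca-1+, from animals whose genotype is labelled WT, and the study used males only. ND mice ate chow with 0.5% NaCl. HSD mice ate chow with 8% NaCl and drank water with 1% NaCl. Both diets were given for 8 weeks, starting at 4 to 6 weeks of age by the study's methods and at 6 weeks by its account of the 8-week diets. The ND ICHD7 and HSD ICHD7 groups had the same diets and were then given an intracerebral hemorrhage (ICH) by injection of their own blood into the brain, with bone marrow taken 7 days later. Since every mouse ate ND after ICH, HSD ICHD7 mice carry a past and not a present HSD. Each group had 3 libraries. Cells of 3 animals were pooled per library in ND and HSD, and how many were pooled after ICH was not found.

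NRF2, encoded by Nfe2l2, is a transcription factor that KEAP1 holds in the cytoplasm and hands to the proteasome. Oxidants and electrophiles modify KEAP1, NRF2 then accumulates, pairs with a small MAF protein and binds antioxidant response elements (AREs), while BACH1 competes for the same sites. The targets make and recycle glutathione and thioredoxin, the thiol carriers that feed peroxidases, and much of the NRF2 response is set by protein stability, which RNA-seq does not read. In bone marrow, hematopoietic stem cells keep reactive oxygen species low, and these rise as progenitors commit to the myeloid lineages.

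The motif by which NRF2 and a small MAF bind DNA is shown here because the members were listed around this regulator. Its share among them is therefore no independent link to NRF2. Promoter windows of RefSeq (GRCm38.p6), from 250 bases before to 50 after each start, were held for 37 of the 42 members; Gclc, Gsr, Gsta4, Prdx6 and Abcc1 had none. The ARE core TGACNNNGC, searched on both strands, was in the windows of 10 members (27% of those matched), against 14% of all 27025 genes with a window. The related AP-1 core TGANTCA was in 6 members (16.2%, against 8.97% of all genes). TGANTCAGC, which holds the AP-1 core whole and may overlap an ARE core, was in 3 members (8.11%, against 1.37%). Capitals mark the motif, and each line runs 5′ to 3′ on the strand of the gene, so that a motif on the opposite strand appears as its reverse complement.
Prdx1 (chr4:116685456-116685484, gene on the + strand): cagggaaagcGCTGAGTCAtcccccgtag
Srxn1 (chr2:152105469-152105497, gene on the + strand): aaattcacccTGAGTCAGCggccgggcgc
Gstp1 (chr19:4037968-4037996, gene on the - strand): tccaacgtgtTGAGTCAGCatccggggcg
Nfe2l2 (chr2:75704885-75704913, gene on the - strand): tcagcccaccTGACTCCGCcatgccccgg
Mafg (chr11:120633751-120633779, gene on the - strand): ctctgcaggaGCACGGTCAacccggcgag
Gclm (chr3:122245413-122245441, gene on the + strand): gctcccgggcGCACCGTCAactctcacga
Txnrd1 (chr10:82859104-82859132, gene on the + strand): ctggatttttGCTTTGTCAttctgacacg
Sod1 (chr16:90220696-90220724, gene on the + strand): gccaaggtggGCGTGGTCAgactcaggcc
Mgst2 (chr3:51661117-51661143, gene on the + strand): ccaatcctgtTGACTCAactctgttgc
The first 3 are the members with TGANTCAGC, the next 5 hold an ARE core in genes of NRF2 control, glutathione synthesis, thioredoxin reduction and superoxide removal, and Mgst2 is shown for its AP-1 core because it is among the members that differ most after ICH. A match is a string of letters, not an occupied site. Members with and without the ARE core are set side by side with the fold changes below.

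The deposited unit is CPM, reads scaled to a library size that was itself adjusted by TMM, and reads in the listed genes numbered 8678304 to 27491973 per library. Kit, which encodes the c-kit of the sort, measured 328.9 to 487.3 CPM, and Ly6a, which encodes Sca-1, only 2.42 to 6.72 CPM. HSD ICHD7 replicate 3 stood apart: it was the deepest library, its summed HSPC markers were the lowest (929.3 CPM, against 1351.1 to 1710.8 in the other 11 libraries), and a list of 13 granulocyte-monocyte progenitor genes, written after values had been seen, summed to 14337.0 CPM there, against 1606.6 to 5596.1 elsewhere. Counts of that list in the comparisons below describe these libraries and are no independent test of a shift in cell types. The 15 macrophage markers were raised in a pair of libraries, HSD replicate 2 (summed 908.4 CPM) and ND replicate 1 (519.6 CPM). The remaining 10 lay between 99.3 and 216.1 CPM, with no marker at 0. Summed over 12 genes, erythroid markers were also highest in this pair (360.5 CPM in ND replicate 1, 299.5 in HSD replicate 2). In the other 10 libraries they summed to 40.6 to 182.6 CPM, lowest in HSD ICHD7 replicate 3. Between 1393 and 1755 listed genes were at 0 in libraries without ICH and 2 to 29 in those after it, so ICH and whatever differed in the making of these libraries cannot be told apart.

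Within HSPCs of ND mice the members spanned a wide range of levels. Per kilobase of exon, Gpx1, the abundant cytosolic glutathione peroxidase, led with 194.9 ± 25.3 CPM per kb (SD, n = 3). Gpx4, which reduces lipid peroxides in membranes, was next with 36.1 ± 1.74 CPM per kb, close to Txn1, the cytosolic thioredoxin, with 34.7 ± 3.85, and the ranges of these 2 genes over the libraries overlapped. Park7, a redox-sensitive protein that is reported to stabilize NRF2, had 27 ± 2.75 and catalase (Cat) 24.2 ± 1.8 CPM per kb. From Prdx2 to Prdx1, ranks 6 to 11, neighbours lay between 20 and 22 CPM per kb and did not differ beyond their spread. At the other end were classical inducible or detoxifying targets: Srxn1 with 1.36 ± 0.0355, Nqo1 with 0.977 ± 0.316, Ephx1 with 0.839 ± 0.0268 and Mgst2 with 0.733 ± 0.0455 CPM per kb. Gene lengths were summed exons of GENCODE M21, so transcripts of unlike length within a gene can shift this order.

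**Figure D1:**
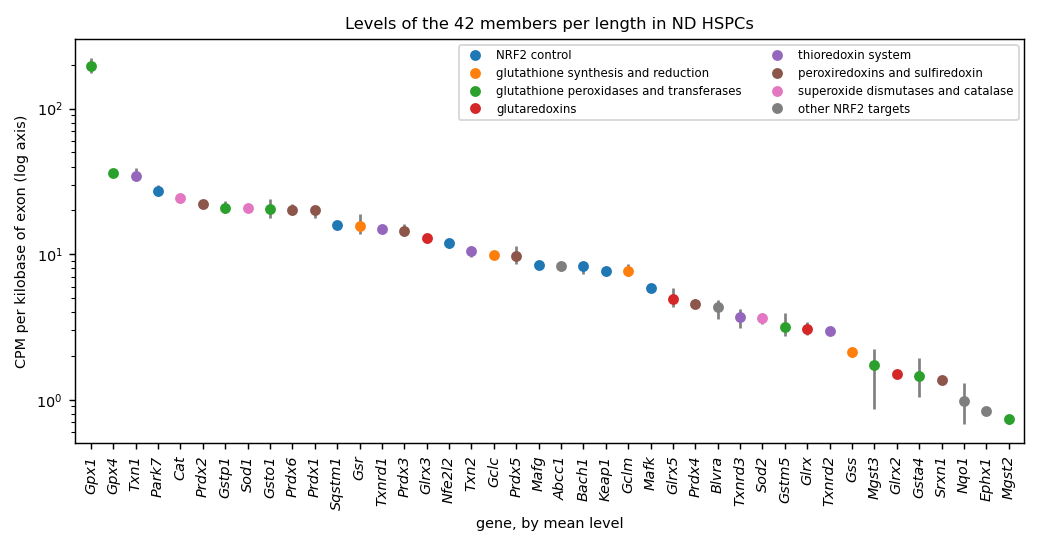
Levels of the 42 members in ND HSPCs, in CPM per kilobase of exon on a log axis, ordered by mean; points are means of 3 libraries colored by role and lines run from the lowest to the highest library. Gpx1 stands at 194.9 CPM per kb, far above Gpx4 at 36.1, and Mgst2 is last at 0.733.

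No gene of NRF2 control passed the adjusted test in any of the 4 comparisons. Nfe2l2 measured 46.1, 42.2 and 46.8 CPM in ND, 48.7, 42.9 and 48.9 in HSD, 46.5, 54.5 and 45.9 in ND ICHD7, and 50.1, 43.1 and 60.1 in HSD ICHD7. The highest library was HSD ICHD7 replicate 3, and the other 11 lay between 42.2 and 54.5 CPM, with all groups overlapping. Keap1 measured 37.2, 37.9 and 33.3 CPM in ND, 32.7, 38.4 and 36.2 in HSD, 32.9, 26.9 and 34 in ND ICHD7, and 30.7, 36.7 and 33.3 in HSD ICHD7. Keap1, whose product marks NRF2 for destruction, thus varied less than 1.5-fold over all libraries. Bach1 measured 54.7, 45.6 and 52.8 CPM in ND, 52.1, 51.3 and 52.6 in HSD, 56.9, 54.2 and 54 in ND ICHD7, and 54.9, 54.3 and 50.6 in HSD ICHD7. BACH1 is the heme-sensitive repressor at AREs, and its RNA lay in one band in all groups.

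Mafg measured 47.9, 49.8 and 45.3 CPM in ND, 50, 70.4 and 49.3 in HSD, 46, 39.8 and 47.3 in ND ICHD7, and 47.6, 52 and 53.2 in HSD ICHD7. Among the small MAF partners, Mafg stood out in HSD replicate 2 alone, one of the libraries high in macrophage and erythroid markers. Mafk ranged from 14.7 CPM in HSD ICHD7 replicate 3 to 25.5 CPM in HSD replicate 2. Sqstm1, the autophagy receptor that binds KEAP1, ranged from 45.6 to 59 CPM. Park7 measured 74.7, 63.4 and 62.4 CPM in ND, 68.3, 83.9 and 75.6 in HSD, 55.5, 58.6 and 67.8 in ND ICHD7, and 65.2, 61.9 and 85.9 in HSD ICHD7. Its highest libraries were HSD ICHD7 replicate 3 and HSD replicate 2, and the groups overlapped in all 4 comparisons described below.

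Of the genes that make glutathione, Gclc and Gclm encode the catalytic and the modifier subunit of glutamate-cysteine ligase, the limiting enzyme, and Gss the synthetase of the second step. Gclc measured 38.3, 35.4 and 37.2 CPM in ND, 38.6, 44.1 and 37.1 in HSD, 35.8, 31.5 and 34.4 in ND ICHD7, and 37.5, 31.9 and 40.1 in HSD ICHD7. Gclm measured 53.8, 46 and 44.9 CPM in ND, 50, 43.9 and 55.8 in HSD, 46.9, 41.6 and 52 in ND ICHD7, and 44.9, 52.8 and 41.4 in HSD ICHD7. Groups overlapped for both genes in these comparisons, and Gss stayed between 11.6 and 15.6 CPM. Gsr encodes glutathione reductase, which returns oxidized glutathione to its thiol form at the cost of NADPH. Its exons lie between chr8:33652523 and 33698163 (GRCm38, + strand). Gsr measured 52.3, 38 and 39.3 CPM in ND, 42.6, 52.1 and 47.2 in HSD, 65.5, 59.1 and 61.7 in ND ICHD7, and 80.5, 81.2 and 225.7 in HSD ICHD7. All 6 libraries after ICH were above all 6 without it, all 3 of HSD ICHD7 were above all 3 of ND ICHD7, and replicate 3 of HSD ICHD7 was 2.79 times the mean of the other libraries of its group.

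Gpx1 measured 322.4, 266.2 and 253.8 CPM in ND, 303.5, 314.5 and 310.6 in HSD, 293.5, 323.9 and 333.8 in ND ICHD7, and 340.4, 326.9 and 526.2 in HSD ICHD7. Again HSD ICHD7 replicate 3 was far above the rest, while the other 11 libraries lay between 253.8 and 340.4 CPM. Gpx4 measured 65.4, 61.9 and 59.5 CPM in ND, 59.8, 63.2 and 62.4 in HSD, 57.6, 71.7 and 67.8 in ND ICHD7, and 66.4, 68.5 and 84.2 in HSD ICHD7. All HSD ICHD7 libraries lay above all HSD libraries for Gpx4, and groups overlapped in the other 3 comparisons. Mgst2 measured 2.52, 2.83 and 2.79 CPM in ND, 2.95, 3.11 and 2.96 in HSD, 6.84, 5.73 and 4.26 in ND ICHD7, and 6.83, 4.36 and 14.6 in HSD ICHD7. Mgst2 is a microsomal glutathione transferase that can also conjugate glutathione to leukotriene A4, and its gene spans chr3:51660360-51682677 (GRCm38, + strand). All 6 libraries after ICH were above all 6 without it, again with HSD ICHD7 replicate 3 as the highest.

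Mgst3 measured 2.31, 2.43 and 0.952 CPM in ND, 2.11, 3.92 and 2.54 in HSD, 2.1, 4.06 and 3.6 in ND ICHD7, and 3.14, 2.59 and 3.03 in HSD ICHD7. Mgst3, of the same family, scattered within groups as much as between them, at 15 to 84 reads a library. Gstp1 measured 29.8, 31 and 36 CPM in ND, 29.2, 34.5 and 29.1 in HSD, 25.3, 27.2 and 25.4 in ND ICHD7, and 29.2, 31.9 and 30 in HSD ICHD7. The pi-class transferase Gstp1 was lower in every ND ICHD7 library than in every other library; its near-identical neighbour Gstp2 makes the split of reads between them uncertain. Gsta4 ranged from 1.31 to 2.87 CPM, Gsto1 from 36 to 58.8 CPM and Gstm5 from 3.23 to 5.53 CPM, with groups overlapping in all 4 comparisons.

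Glutaredoxins use glutathione to reduce mixed disulfides or, in Glrx3 and Glrx5, to handle iron-sulfur clusters. Glrx measured 18.9, 16.4 and 15.3 CPM in ND, 14.7, 15.8 and 19.8 in HSD, 18.7, 22.5 and 19.5 in ND ICHD7, and 20.6, 19.1 and 34.5 in HSD ICHD7. Only HSD ICHD7 replicate 3 left the band of the other libraries, whose highest value was 22.5 CPM. Glrx2 ranged from 11.9 to 16 CPM, Glrx3 from 59.6 to 85.2 CPM and Glrx5 from 16.1 to 25.7 CPM.

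In the thioredoxin system, reductases (Txnrd1 in the cytosol, Txnrd2 in mitochondria, Txnrd3 a form that also acts on glutathione) keep thioredoxins reduced. Txn1 measured 41, 35.3 and 33.2 CPM in ND, 30.4, 33.3 and 38.6 in HSD, 32.5, 35.9 and 30.6 in ND ICHD7, and 37.6, 38.8 and 55.3 in HSD ICHD7. The highest was HSD ICHD7 replicate 3, and all 3 HSD ICHD7 libraries lay above all 3 of ND ICHD7. Txn2 measured 48.1, 44.7 and 40.4 CPM in ND, 51.1, 49.2 and 46.5 in HSD, 42.7, 38.1 and 44.3 in ND ICHD7, and 44.1, 45.1 and 51.4 in HSD ICHD7. Txn2, the mitochondrial form, overlapped between groups in every comparison. Txnrd1 measured 105.2, 105.3 and 105.7 CPM in ND, 98.8, 94.4 and 97.9 in HSD, 95.3, 91.5 and 110.0 in ND ICHD7, and 91, 99 and 97.8 in HSD ICHD7. The ND libraries agreed to within 1 CPM and lay above all HSD libraries. Txnrd3 measured 10.7, 11.9 and 8.76 CPM in ND, 12.1, 11.6 and 10.5 in HSD, 14.5, 11.5 and 16.2 in ND ICHD7, and 10.7, 10.6 and 9.14 in HSD ICHD7. All 3 ND ICHD7 libraries lay above all 3 of HSD ICHD7, and Txnrd2 ranged from 10.3 to 14 CPM.

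Peroxiredoxins reduce hydrogen peroxide with electrons from thioredoxin, and sulfiredoxin (Srxn1) rescues those that are over-oxidized. Prdx1 measured 64.6, 64.7 and 53.7 CPM in ND, 61.9, 58.7 and 74.5 in HSD, 53.2, 91.8 and 68.5 in ND ICHD7, and 63.4, 60.5 and 88.7 in HSD ICHD7. Srxn1 measured 3.85, 3.94 and 3.74 CPM in ND, 3.62, 4.32 and 4.23 in HSD, 4.01, 2.87 and 4.62 in ND ICHD7, and 3.69, 4.58 and 2.38 in HSD ICHD7. Groups overlapped in these comparisons for both genes, whose promoters hold TGANTCAGC. Prdx4 measured 9.59, 10.4 and 8.95 CPM in ND, 8.62, 7.84 and 8.87 in HSD, 9.01, 9.43 and 8.66 in ND ICHD7, and 11.1, 10.5 and 10.7 in HSD ICHD7. Prdx4, the form of the secretory pathway, was lower in all HSD libraries than in all ND libraries and higher in all HSD ICHD7 libraries than in those of the other 3 groups. Prdx5 measured 24.1, 20.1 and 18.4 CPM in ND, 19.4, 30 and 21.2 in HSD, 22.5, 25 and 20.8 in ND ICHD7, and 30.9, 27.5 and 51.1 in HSD ICHD7. Prdx5 was higher in all HSD ICHD7 libraries than in ND ICHD7, with replicate 3 again the highest, and 19.1% of its exon bases overlap Trmt112 on the opposite strand. Whether counting used strand is not given in the sources used here, and without it reads of the 2 genes would mix, as they would for Sqstm1 (17.3% of exon bases under Mrnip), Gstm5 (13.9%) and Keap1 (10.9%). Prdx2 ranged from 57.5 to 71.6 CPM, Prdx3 from 17.4 to 31.2 CPM and Prdx6 from 85.5 to 105.6 CPM.

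Sod1 measured 84.4, 81.5 and 80.5 CPM in ND, 80.3, 92.8 and 89.7 in HSD, 64.9, 61.6 and 79.4 in ND ICHD7, and 90.2, 86.1 and 85.8 in HSD ICHD7. Sod1, the cytosolic superoxide dismutase, was lower in all ND ICHD7 libraries than in all ND and HSD ICHD7 libraries. Sod2 measured 36, 39.7 and 33.3 CPM in ND, 37.5, 38.4 and 38.2 in HSD, 33.9, 36.5 and 38.1 in ND ICHD7, and 38.4, 39.5 and 44.6 in HSD ICHD7. The mitochondrial Sod2 was narrow, with HSD ICHD7 above ND ICHD7 by a small margin. Cat measured 68.2, 58.8 and 62.8 CPM in ND, 59, 70.5 and 62.4 in HSD, 57.6, 59.5 and 58.7 in ND ICHD7, and 58.9, 61.3 and 60.1 in HSD ICHD7. Catalase overlapped between groups in every comparison.

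Nqo1 measured 1.47, 1.05 and 2.03 CPM in ND, 2.17, 2.01 and 0.951 in HSD, 2.17, 1.31 and 1.54 in ND ICHD7, and 1.43, 2.44 and 0.903 in HSD ICHD7. Nqo1, the quinone reductase most often used to read NRF2 activity, had 9 to 36 reads a library. Its means were 1.52 CPM in ND, 1.71 in HSD, 1.67 in ND ICHD7 and 1.59 in HSD ICHD7, and all groups overlapped. Whether the low depth hid a difference was not tested. Ephx1, an epoxide hydrolase, ranged from 1.06 to 2.5 CPM in 11 libraries and measured 6.73 CPM in HSD replicate 2. This library had the highest macrophage markers and was in the pair with high erythroid markers. Abcc1, an exporter of glutathione conjugates, ranged from 100.9 to 133.0 CPM, and Blvra, which makes bilirubin from biliverdin, from 8.5 to 13.3 CPM.

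**Figure D2:**
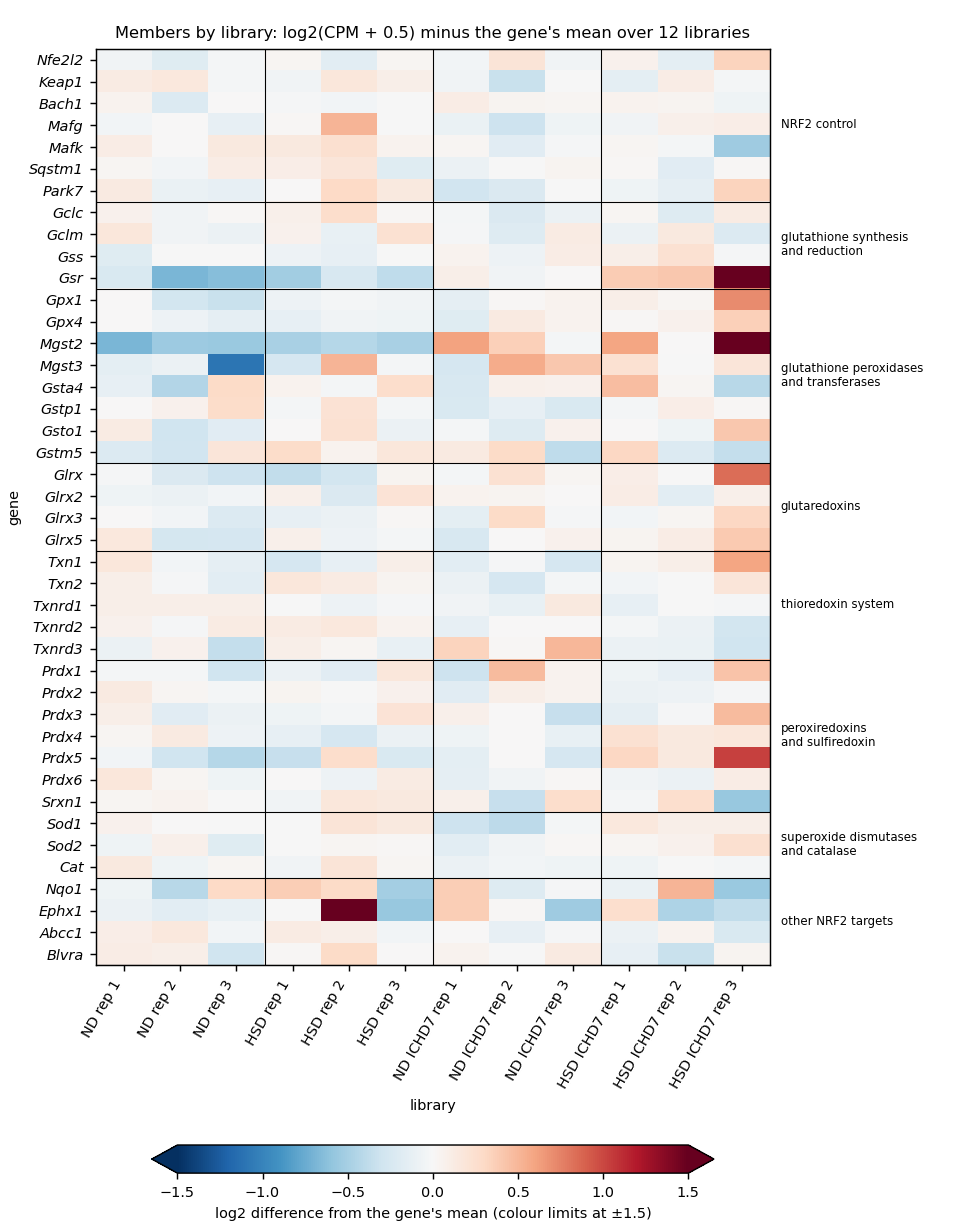
The 42 members (rows, by role) in the 12 libraries (columns, by group): color is log2(CPM + 0.5) minus the mean of the gene over all libraries, with color limits at ±1.5. Most rows are pale. Gsr and Mgst2 are blue without ICH and near white to red after it, darkest in HSD ICHD7 replicate 3, and Gsr is near white in ND ICHD7. HSD ICHD7 replicate 3 is the highest library for 15 members, where it is so for 19.7% of all genes, and Ephx1 is dark red only in HSD replicate 2.

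The first question was whether 8 weeks of HSD changed these genes without ICH. No member passed the test in either direction. The test was limma on log2(CPM + 0.5), for each gene that had 10 or more reads in 3 or more libraries of a comparison, with p-values adjusted by Benjamini and Hochberg over all such genes. All 42 members met this filter in each comparison. At an unadjusted p under 0.05, limma, edgeR's quasi-likelihood test and DESeq2 each called 0 members, against 3.65% of all 16787 genes higher and 3.28% lower by limma, and at an adjusted p under 0.05 each again called 0, where limma called 0.0774% of all genes. Means were higher in HSD for 30 members and lower for 12, where 54.6% of all genes tested had higher means. The median log2 fold change was 0.08 beside 0.02 over all genes tested. For 40 members the 95% interval of the difference lay within a 2-fold change either way, and for 37 within 1.5-fold; Mgst3 and Ephx1 were the exceptions at 2-fold. Levels of RNA per cell and shares of cell types cannot be told apart in such bulk samples.

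The 6 members with the smallest p in this comparison had small differences. Park7 had a log2 fold change of 0.18 ± 0.10 (SE, limma adjusted p = 0.757), Mafg one of 0.23 ± 0.12 (adjusted p = 0.765), and Txnrd1 one of −0.12 ± 0.07 (adjusted p = 0.77). Mgst3 had a log2 fold change of 0.52 ± 0.31 (SE, limma adjusted p = 0.775), Gpx1 one of 0.15 ± 0.09 (adjusted p = 0.777), and Txn2 one of 0.14 ± 0.09 (adjusted p = 0.781). None of these adjusted p-values was below 0.757. Libraries of the diets did not overlap for Mgst2, higher in HSD, and for Txnrd1 and Prdx4, lower in HSD, which is 7.14% of members against 12.8% of all genes. Macrophage and erythroid markers were high in 1 library of each diet. When this pair of libraries was left out, 5 members reached an unadjusted p under 0.05 and 0 an adjusted p under 0.05 by limma. It was 4 members without ND replicate 1 alone, 1 member without HSD replicate 1 and 2 members without HSD replicate 3, again with 0 after adjustment. All 13 granulocyte-monocyte progenitor genes had higher means in HSD, 4 of them at an unadjusted p under 0.05, with sums of 2319.5 to 2815.6 CPM against 1606.6 to 2706.0 in ND. All 9 mature neutrophil markers tested had lower means in HSD, 2 of them at an unadjusted p under 0.05. Their sums were 32.9, 47.5 and 100.4 CPM in ND, where replicate 3 stood apart, and 40.8, 33 and 33.7 in HSD. Of 11 HSPC markers 8 had lower means (median log2 fold change −0.01, 1 at an unadjusted p under 0.05). Of 15 macrophage markers 11 had higher means (median 0.15, 0 at an unadjusted p under 0.05).

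The second question was whether past HSD marked HSPCs on day 7 after ICH. Gsr, Prdx5, Sod1 and Txn1 were higher in HSD ICHD7 than in ND ICHD7 at an unadjusted p under 0.05 and Txnrd3 was lower, but no member held after adjustment. Sod1 had a log2 fold change of 0.35 ± 0.12 (SE, limma adjusted p = 0.263), and Prdx5 one of 0.62 ± 0.21 (adjusted p = 0.267). Gsr had a log2 fold change of 0.87 ± 0.34 (SE, limma adjusted p = 0.285), and Txn1 one of 0.39 ± 0.16 (adjusted p = 0.294). Txnrd3 had a log2 fold change of −0.44 ± 0.16 (SE, limma adjusted p = 0.277), and Gstp1 one of 0.22 ± 0.11 (adjusted p = 0.343). The 4 higher members are 9.52% of the 42, where 5.42% of all 20079 genes were higher, and the 1 lower member is 2.38%, where 10.2% of genes were lower. Adjusted p-values under 0.05 were reached by 0 members and 0% of all genes with limma, and by 0 members with edgeR's quasi-likelihood test and DESeq2. Without ND ICHD7 replicate 1, and likewise without ND ICHD7 replicate 3, only 1 member reached an unadjusted p under 0.05.

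Of the 42 members, 26 had higher and 16 lower means in HSD ICHD7, with a median of 0.06 beside −0.03 over all genes. Without overlap between the diets were 9 members, 21.4% against 23.4% of all genes: Mafg, Gsr, Gstp1, Txn1, Prdx4, Prdx5, Sod1 and Sod2 were higher and Txnrd3 lower. By role, means were higher in HSD ICHD7 for 4 of 7 genes of NRF2 control, 3 of 4 of glutathione synthesis and reduction, 6 of 8 glutathione peroxidases and transferases, 3 of 4 glutaredoxins, 2 of 5 of the thioredoxin system, 5 of 7 peroxiredoxins and sulfiredoxin, 3 of 3 superoxide dismutases and catalase, and 0 of 4 other NRF2 targets, where 45.8% of all genes tested had higher means. The interval lay within 2-fold for 39 members, all but Prdx5, Gsr and Mgst2. Without HSD ICHD7 replicate 3, the log2 fold change of Gsr was 0.38 (limma adjusted p = 0.309), that of Prdx5 0.35, that of Txn1 0.21 and that of Sod1 0.37. Among the same libraries, 12 of the 13 granulocyte-monocyte progenitor genes had higher means in HSD ICHD7 and 11 an unadjusted p under 0.05, with sums of 4661.3 to 14337.0 CPM against 2759.6 to 4046.4 in ND ICHD7 and no marker at 0. At that p 5.42% of all genes were higher, but this list was written after values had been seen, so its count is no independent support. Of 11 HSPC markers 10 had lower means (median log2 fold change −0.43, 4 at an unadjusted p under 0.05), as had 13 of 15 macrophage markers (median −0.47, 0 at an unadjusted p under 0.05), and of 9 mature neutrophil markers tested 6 had higher means (median 0.18, 1 at an unadjusted p under 0.05). The part of these lists in the differences of the members was not tested.

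**Figure D3:**
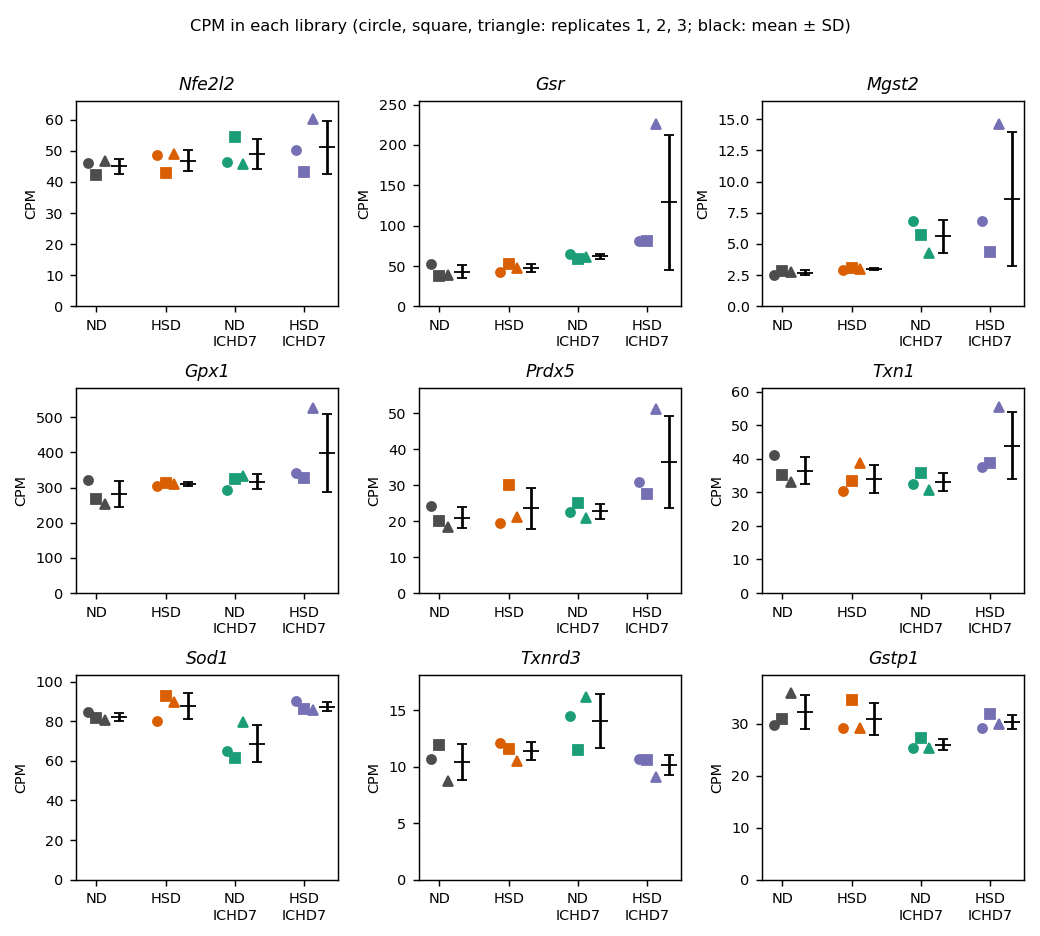
CPM of 9 members in each library (circle, square and triangle for replicates 1, 2 and 3; black marks are means ± SD of 3 libraries), with every axis starting at 0. Gsr and Mgst2 lie higher in both groups after ICH, Sod1 and Gstp1 are lowest in ND ICHD7, and the triangle of HSD ICHD7 is the highest point for Nfe2l2, Gsr, Mgst2, Gpx1, Prdx5 and Txn1.

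Libraries after ICH were then compared with those without it, within each diet. As said above, ICH and whatever differed in the making of these libraries cannot be told apart. In ND mice Mgst2 and Gsr were higher after ICH, and they were the only members to pass the adjusted test by limma. Mgst2 went from 2.71 ± 0.169 to 5.61 ± 1.29 CPM and Gsr from 43.2 ± 7.88 to 62.1 ± 3.23 CPM (SD, n = 3). Mgst2 had a log2 fold change of 0.91 ± 0.20 (SE, limma adjusted p = 0.00981), and Gsr one of 0.53 ± 0.12 (adjusted p = 0.0116). Gstp1 had a log2 fold change of −0.30 ± 0.10 (SE, limma adjusted p = 0.0681), and Sod1 one of −0.26 ± 0.10 (adjusted p = 0.11). Txnrd3 had a log2 fold change of 0.41 ± 0.16 (SE, limma adjusted p = 0.13), and Mgst3 one of 0.67 ± 0.31 (adjusted p = 0.19). Gstp1, Sod1 and Txnrd3 thus passed only without adjustment. The 3 members higher at an unadjusted p under 0.05 are 7.14% of the 42, where 18.1% of all 19387 genes were higher, and the 2 lower members are 4.76%, where 10.3% were lower. After adjustment 13.5% of all genes were higher, beside 2 of the 42 members. More genes were tested here than the 16787 for HSD against ND. Some met the filter only through libraries after ICH, where far fewer genes were at 0. Shares of all genes in the ICH comparisons are therefore not a like background for the members, which were detected in every library.

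Both calls in ND rested on few libraries. Mgst2 lost its call without ND ICHD7 replicate 1 or replicate 2 (largest adjusted p 0.0986 by limma), and Gsr without ND replicate 2 or 3 or ND ICHD7 replicate 1 or 3 (largest 0.0985). The count of adjusted calls was 0 without ND ICHD7 replicate 1 and 1 without ND replicate 2, ND replicate 3, ND ICHD7 replicate 2 or ND ICHD7 replicate 3, and that of unadjusted calls was 3 without ND replicate 3. Log2 fold changes stayed between 0.76 and 1.07 for Mgst2 and between 0.45 and 0.68 for Gsr whichever library was left out. Means of the 42 members were split evenly, 21 higher and 21 lower after ICH, where 50.8% of all genes tested had higher means. The median was 0.03 beside 0.01 over all genes. Libraries of the groups did not overlap for 5 members, 11.9% against 33.4% of all genes. Of the 13 granulocyte-monocyte progenitor genes, 12 had higher means in ND ICHD7 and 7 passed the adjusted test upward, with sums of 2759.6 to 4046.4 CPM against 1606.6 to 2706.0 in ND; the remaining one, the receptor gene Csf3r, passed it downward (170.1 to 138.2 CPM). Of 15 macrophage markers 13 had lower means (median log2 fold change −0.88, 3 at an unadjusted p under 0.05, 0 after adjustment), and of 11 HSPC markers 9 had (median −0.11, 0 at an unadjusted p under 0.05). The part of these lists in the higher values of Gsr and Mgst2 was not tested.

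In HSD mice the same pair of genes led after ICH with larger differences and a larger spread. Gsr measured 47.3 ± 4.79 CPM in HSD and 129.1 ± 83.7 in HSD ICHD7, and Mgst2 3.01 ± 0.0916 and 8.61 ± 5.36 CPM (SD, n = 3). Gsr had a log2 fold change of 1.26 ± 0.34 (SE, limma adjusted p = 0.0614), and Mgst2 one of 1.21 ± 0.36 (adjusted p = 0.0881). Prdx5 had a log2 fold change of 0.59 ± 0.24 (SE, limma adjusted p = 0.193), and Glrx one of 0.51 ± 0.22 (adjusted p = 0.221). Prdx4 had a log2 fold change of 0.33 ± 0.14 (SE, limma adjusted p = 0.223), and Txn1 one of 0.35 ± 0.16 (adjusted p = 0.254). By limma 0 members passed the adjusted test, where 5.31% of all 18082 genes were called higher; edgeR's quasi-likelihood test also called 0 and DESeq2 called 2, Gsr and Mgst2. At an unadjusted p under 0.05, 5 members were higher, 11.9% where 11.8% of all genes were, and 0 lower, where 9.73% were.

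HSD ICHD7 replicate 3 lay above both other libraries of its group for all 4 of Gsr, Mgst2, Prdx5 and Glrx. Without it, Gsr passed the adjusted test with a smaller difference (log2 fold change 0.77, limma adjusted p = 0.00173), Mgst2 had 0.77 (adjusted p = 0.147), Prdx5 0.33 and Glrx 0.25. The count of unadjusted calls was 3 without HSD ICHD7 replicate 3 or HSD replicate 2 and 2 without HSD replicate 1. Groups did not overlap for 8 members, 19% against 28.7% of all genes, with Gsr, Gpx1, Gpx4, Mgst2 and Prdx4 higher after ICH and Mafk, Txnrd2 and Prdx2 lower. Means were higher for 18 members and lower for 24, where 49.3% of all genes tested had higher means. The median was −0.02 beside −0.01 over all genes. Of the 13 granulocyte-monocyte progenitor genes 12 had higher means in HSD ICHD7, 7 passed the adjusted test upward and Csf3r passed it downward. All 9 mature neutrophil markers tested had higher means (median log2 fold change 0.99) and 4 passed upward, with sums of 63.9 to 72.6 CPM against 33 to 40.8 in HSD. Of 15 macrophage markers 14 had lower means (median −1.33, 0 at an unadjusted p under 0.05), with sums of 99.3 to 216.1 CPM against 128.0, 150.3 and 908.4 in HSD. Of 11 HSPC markers 9 had lower means (median −0.51, 7 at an unadjusted p under 0.05) and 1 passed downward. At that p 9.73% of all genes were lower. The part of these lists in the differences of the members was not tested.

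The ICH comparisons of the 2 diets share no library, nor do the diet comparisons without and after ICH. Differences after ICH had the same direction in both diets for 31 of 42 members (73.8%, against 69% of all genes), 14 higher and 17 lower, and 29 without HSD ICHD7 replicate 3. Diet differences had the same direction without and after ICH for 22 of 42 members (52.4%, against 60.4% of all genes). Members with the ARE core in their promoter window had median log2 fold changes of 0.08 for HSD against ND, −0.03 for HSD ICHD7 against ND ICHD7, −0.03 for ND ICHD7 against ND and −0.12 for HSD ICHD7 against HSD. The 27 matched members without it had medians of 0.07, 0.15, 0.07 and 0.06 in the same order. Prdx1 and Srxn1, both with TGANTCAGC, are among the members that did not pass any test, Gstp1 passed only the unadjusted one in ND, and the windows of Gsr are not among the sequences used.

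**Figure D4:**
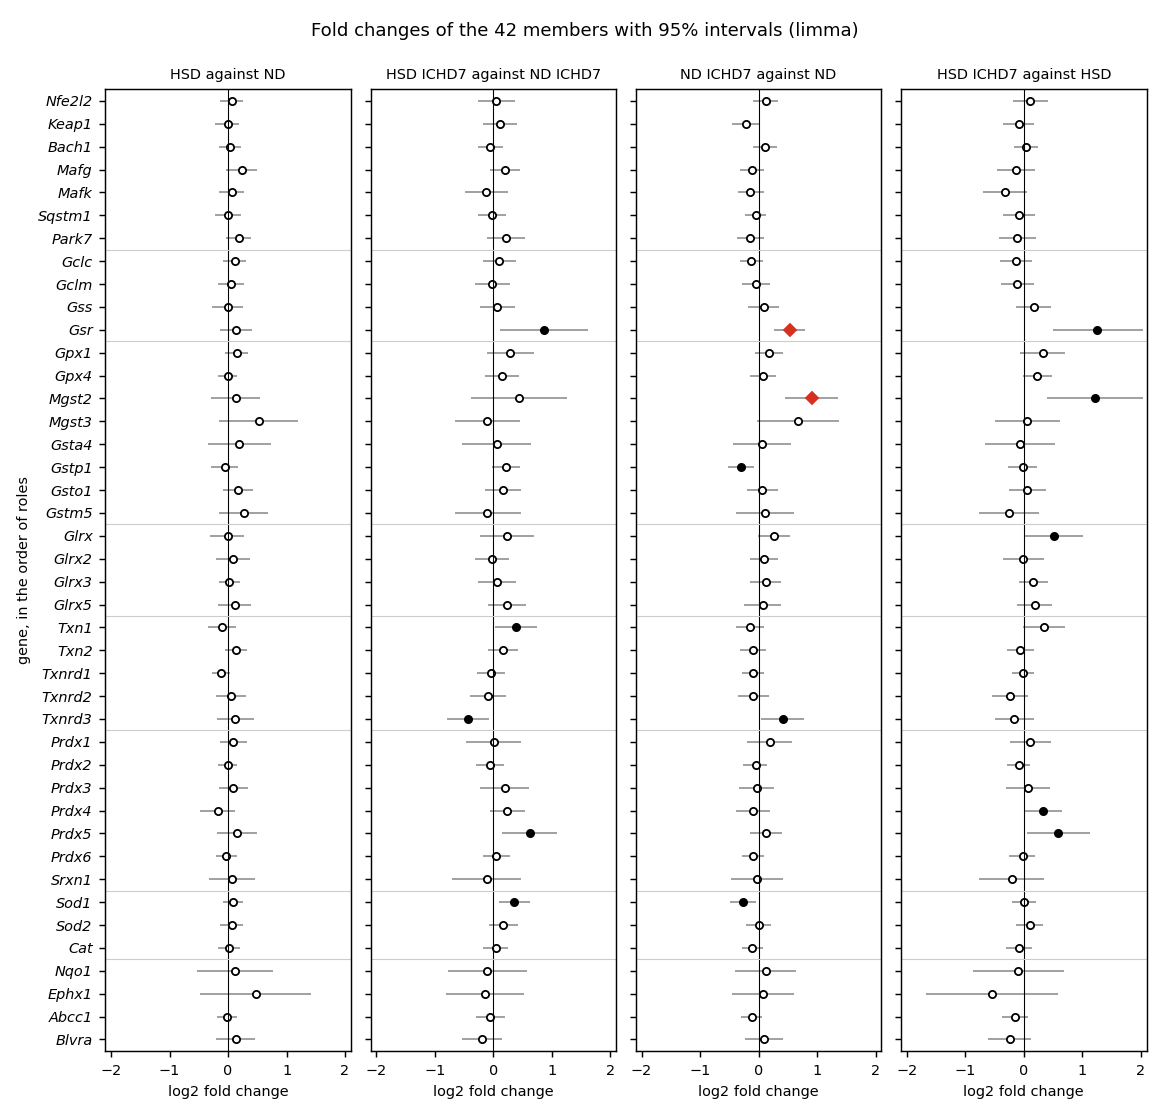
Log2 fold changes of the 42 members (rows, by role) in 4 comparisons, with 95% intervals of limma; open circles have an unadjusted p of 0.05 or more, black circles a p under 0.05, and red diamonds an adjusted p under 0.05. No circle is filled for HSD against ND, the 2 diamonds are Gsr and Mgst2 in ND ICHD7 against ND, and most intervals stay within ±1.

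Whether the effect of diet differed after and without ICH was tested as an interaction in 1 fit of all libraries. By limma 0 members and 0% of all 20393 genes passed the adjusted test, and 0 members did so with edgeR's quasi-likelihood test and DESeq2. At an unadjusted p under 0.05, Prdx4 and Txn1 had a more positive diet difference after ICH (4.76% of members, against 2.22% of all genes) and Txnrd3 a more negative one (2.38%, against 6.13%). Txnrd3 had a log2 interaction of −0.56 ± 0.22 (SE, limma adjusted p = 0.541), Prdx4 one of 0.42 ± 0.17 (adjusted p = 0.572), and Txn1 one of 0.49 ± 0.20 (adjusted p = 0.58). Gstp1 had a log2 interaction of 0.28 ± 0.14 (SE, limma adjusted p = 0.612), Sod1 one of 0.26 ± 0.14 (adjusted p = 0.613), and Gsr one of 0.73 ± 0.41 (adjusted p = 0.632). The count at an unadjusted p under 0.05 was 1 without ND ICHD7 replicate 3 and 5 without HSD ICHD7 replicate 2. For 34 members the 95% interval of the interaction lay within 2-fold, and for Txnrd3, Nqo1, Gstm5, Prdx5, Mgst3, Gsr, Ephx1 and Mgst2 it reached past that.

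HSD ICHD7 replicate 3 held the highest value of 15 of the 42 members, where it held that of 19.7% of all genes. It held the lowest value of 6 members, a count for which no share over all genes was computed. The members summed to 2430.7 CPM there and to 1907.6 on average in the other libraries of its group, and 64.5% of this difference came from Gsr and Gpx1. Relative to the mean of the other libraries of HSD ICHD7, 5 members exceeded 1.5-fold: Gsr (2.79), Mgst2 (2.61), Prdx5 (1.75), Glrx (1.74) and Gpx1 (1.58). The lowest values were those of Mafk, Gclm, Txnrd2, Srxn1, Nqo1 and Abcc1, so the members were not raised together in this library. Mpo, the myeloperoxidase of neutrophil granules and one of the 13 progenitor genes, measured 11010.9 CPM there and 1121.6 to 4314.1 CPM in the other libraries, and Elane, neutrophil elastase, 1342.6 against 38.8 to 368.1 CPM. The 3 HSD ICHD7 libraries were the highest of all 12 in Gsr, in Prdx4 and in the summed progenitor genes, but not in Sod1 or Nfe2l2. Prdx4 was not highest in replicate 3 of that group (10.7 CPM, against 11.1 in replicate 1). The part of the progenitor genes in the values of the members was not tested.

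**Figure D5:**
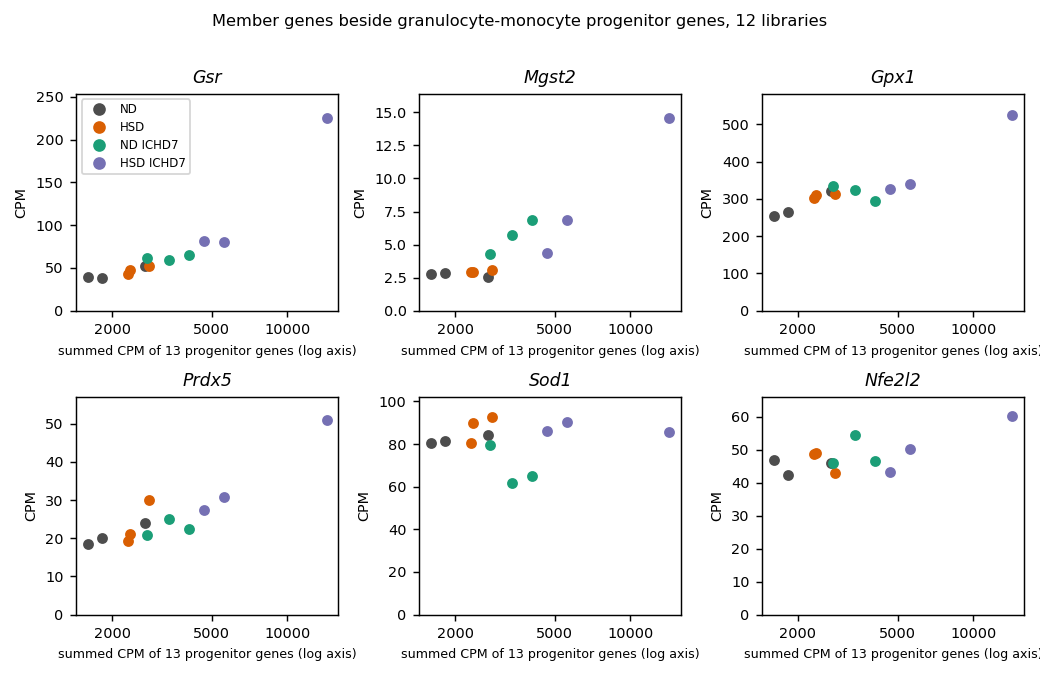
CPM of 6 members (vertical, from 0) beside the summed CPM of 13 granulocyte-monocyte progenitor genes (horizontal, log axis) in the 12 libraries, colored by group. The rightmost point, HSD ICHD7 replicate 3 at 14337.0 CPM, is the highest for Gsr, Mgst2, Gpx1, Prdx5 and Nfe2l2 but not for Sod1. The list of progenitor genes was written after values had been seen.

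Beyond the members, 64 further redox genes were listed by hand, of which 60 were in the files. For HSD against ND, an unadjusted p under 0.05 was reached by 1 higher and 2 lower of 57 genes tested (1.75% and 3.51%, against 3.65% and 3.28% of all genes), and by 6 higher and 3 lower without ND replicate 1 and HSD replicate 2 together. For HSD ICHD7 against ND ICHD7 it was reached by 10 higher and 3 lower of 60 (16.7% and 5%, against 5.42% and 10.2% of all genes), and by 6 higher and 3 lower without HSD ICHD7 replicate 3, where the highest log2 fold change of the list was 0.48 and not 1.01. After adjustment 0 genes were called by limma, edgeR's quasi-likelihood test and DESeq2 in both comparisons. Txnip, which binds and inhibits thioredoxin, was the only one among the 4 with the smallest p in both comparisons. Txnip measured 241.6, 273.3 and 347.5 CPM in ND, 200.1, 243.6 and 251.9 in HSD, 186.0, 250.4 and 246.7 in ND ICHD7, and 164.2, 147.9 and 123.9 in HSD ICHD7. All 3 HSD ICHD7 libraries lay below all others. Txnip had a log2 fold change of −0.64 ± 0.15 (SE, limma adjusted p = 0.241) in HSD ICHD7 against ND ICHD7, and one of −0.30 ± 0.12 (adjusted p = 0.675) in HSD against ND. Pgls, of the pentose phosphate route that feeds NADPH to glutathione reductase, measured 48.3, 50.5 and 58.5 CPM in HSD ICHD7 and 42.1, 38.1 and 41.3 CPM in ND ICHD7 (log2 fold change 0.37, limma adjusted p = 0.26).

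After ICH in ND mice, an unadjusted p under 0.05 was reached by 7 higher and 2 lower of 59 genes tested in this list (11.9% and 3.39%, against 18.1% and 10.3% of all genes). By limma 3 passed the adjusted test, all higher (5.08%, against 13.5% of all genes, with the limit on this background given above). EdgeR's quasi-likelihood test called the same 3, and DESeq2 called 4 higher, Slc7a11 and Gstm1 among them but not Me1. The 3 genes called by limma were Slc7a11, the cystine importer that limits glutathione synthesis, Me1, a source of cytosolic NADPH, and Gstm1, a mu-class glutathione transferase. Slc7a11 measured 0.42, 0.263 and 0.635 CPM in ND, 0.422, 0.301 and 0.423 in HSD, 2.1, 1.85 and 1.25 in ND ICHD7, and 1.5, 1.92 and 0.867 in HSD ICHD7. Gstm1 measured 35.6, 29.1 and 28.4 CPM in ND, 32, 31.3 and 29.8 in HSD, 50.8, 57.1 and 36.9 in ND ICHD7, and 68, 58 and 224.9 in HSD ICHD7. All libraries after ICH were above all without ICH for both genes, and HSD ICHD7 replicate 3 was the lowest of those after ICH for Slc7a11 and by far the highest for Gstm1. Slc7a11 had a log2 fold change of 1.25 ± 0.22 (SE, limma adjusted p = 0.00233), Me1 one of 0.77 ± 0.16 (adjusted p = 0.00701), and Gstm1 one of 0.61 ± 0.16 (adjusted p = 0.0221). In HSD mice an unadjusted p under 0.05 was reached by 10 higher and 4 lower of 59 genes tested (16.9% and 6.78%, against 11.8% and 9.73% of all genes). By limma 1 gene, Slc7a11, passed the adjusted test upward (1.69%, against 5.31% of all genes) and Txnip passed it downward. EdgeR's quasi-likelihood test called Gstm1 higher and Txnip lower, and DESeq2 called 6 higher, with Gstm1 and without Slc7a11, and Txnip lower. Slc7a11 had a log2 fold change of 1.09 ± 0.27 (SE, limma adjusted p = 0.0437), Txnip one of −0.67 ± 0.13 (adjusted p = 0.0168), and Gstm1 one of 1.62 ± 0.41 (adjusted p = 0.0514). In ND, Slc7a11 lost its call without ND ICHD7 replicate 1 or 2 (largest limma adjusted p 0.085) and Gstm1 without ND replicate 2 or 3 or ND ICHD7 replicate 1 or 2 (largest 0.123). In HSD, Slc7a11 lost it when any one of the HSD libraries was left out (largest 0.135), and had adjusted p = 0.0587 by edgeR and 0.0562 by DESeq2 on all of them; Txnip lost its call without HSD replicate 2 or 3 or HSD ICHD7 replicate 1 or 2 (largest 0.105). Without HSD ICHD7 replicate 3, Gstm1 passed the adjusted test with a smaller difference (log2 fold change 1.00, limma adjusted p = 0.000233). Me1, at 0.301 to 1.37 CPM in all libraries, kept its call in ND in the 3 of these fits in which it had reads enough to be tested. Slc7a11 had 3 to 32 reads a library and Me1 5 to 17. In the comparisons that called them, both met the filter of 10 reads in 3 libraries through those after ICH, where they were higher. Their calls are thus no independent support for a rise. Hmox1, the heme oxygenase that is a target of both NRF2 and BACH1, was highest in the pair of libraries with high macrophage and erythroid markers. It measured 120.2 CPM in HSD replicate 2, 58.6 CPM in ND replicate 1 and 6.87 to 18.8 CPM in the other 10.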

How the data were processed

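Bulk RNA-seq of HSPCs was analysed in 12 libraries, 3 for each of ND, HSD, ND ICHD7 and HSD ICHD7. Groups and replicate numbers follow the labels. The authors made libraries with the SMART-Seq Stranded Kit, aligned reads to mm10 with Rsubread, counted them with featureCounts and scaled them with edgeR 3.24.3, and the deposited values are CPM of a library size scaled by TMM. Dividing each value by the CPM that 1 read is worth in its library gave whole numbers to within 0.01 of a read, and these were taken as reads per gene, less certainly in HSD replicate 2.

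Since the files hold CPM, limma 3.58.1 (R 4.3.3, trended variance) on log2(CPM + 0.5) was the main test, with Benjamini-Hochberg adjustment over all genes tested. Fold changes are on the scale of log2(CPM + 0.5), which understates those of low genes. The edgeR 4.0.16 quasi-likelihood test and DESeq2 1.42.0 on recovered reads were alternatives, beside pseudocounts of 0.1 and 1, the study's filter of CPM above 10 in at least 3 libraries, no filter, RLE scaling, a block for the replicate number, a fit of all 12 libraries together, and each library left out in turn. Leaving out ND replicate 1 and HSD replicate 2 together was added after the data had been seen. The fits were also run on simulated counts with the same spread setting for every gene and no library that stood apart. That setting differs from these data, so it does not show how the fits deal with HSD ICHD7 replicate 3.

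Members and lists were chosen with earlier results of these data known. Values by library are given for 15 genes of the pathway named in the plan and for the 6 members with the smallest p in each comparison. Of other lists, up to 4 genes with the smallest p per comparison, Hmox1, Slc7a11, Txnip, Kit and Ly6a could be named; Mpo, Elane, Csf3r and the granulocyte-monocyte progenitor list were chosen after their values were seen. Nothing shows whether libraries of a group come from separate mice beyond the pooling stated, so p-values measure only the spread between libraries. Deviations from the group means correlated by −0.191 to 0.0943 between libraries that share a replicate number, which gave no reason to pair them. Precision is limited by 3 libraries a group and, for members with few reads, by counting error.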

Additional observations from a re-analysis of the deposited data

How the results depend on the processing

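Of the counts of members past a threshold, 138 alternatives gave a count within 1.5 times the one reported and 26 did not. Of the recomputed fold changes of named genes, most without a call to begin with, 570 stayed on the same side of the threshold, 14 gained a call, 31 lost one and 0 changed direction. At an adjusted p under 0.05, the count for ND ICHD7 against ND was 0 with the filter of CPM above 10 and 0 with all 12 libraries in 1 fit, and 0 to 2 when 1 library was left out. For HSD ICHD7 against HSD it was 1 without a filter, 2 with DESeq2, 2 with all 12 libraries in 1 fit and 0 to 1 when 1 library was left out; with the replicate block it was 1 (Gsr). The replicate numbers do not mark shared animals, and the replicate block moved no other count by over 1.5 times. For HSD against ND, HSD ICHD7 against ND ICHD7 and the interaction it was 0 throughout.

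At an unadjusted p under 0.05, leaving out 1 library gave 0 to 4 members for HSD against ND, 1 to 6 for HSD ICHD7 against ND ICHD7, 3 to 7 for ND ICHD7 against ND, 2 to 7 for HSD ICHD7 against HSD and 1 to 5 for the interaction. HSD ICHD7 against HSD had 3 with the filter of CPM above 10 and 9 with all 12 libraries in 1 fit, and HSD against ND had 5 without ND replicate 1 and HSD replicate 2 together. Mgst2 and Gsr in ND ICHD7 against ND lost their calls with all 12 libraries in 1 fit, and Gsr also with the filter of CPM above 10, which Mgst2 does not pass. The cause of these changes was not tested. Depth limits Nqo1, Gsta4, Srxn1, Ephx1, Mgst3 and Gstm5 most, with at most 91 reads in any library. Mgst2, among the members called, is also limited by depth, with 28 to 405 reads a library.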
